A study of Mangifera indica with 4 samples.

Results

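The comparison described here set the spongy library of 5 days after harvest (5 DAH) against the healthy library of the same day, both from the mesocarp, the edible flesh, of table green fruit of the mango (Mangifera indica) cultivar Alphonso. All transcripts with a mean normalized read count of at least 50 over the 4 libraries of the study were taken, 22200 of the 30582 listed, and the size of their difference was described by expression level, by transcript length and by the number of transcripts in the assembled locus. The other 2 libraries, spongy and healthy mesocarp of mid ripe fruit at 10 DAH, entered through that mean and as values beside the main ones. Each of the 4 groups held 1 library, so nothing below was tested between groups and the values describe these libraries. The labels do not say how many fruits or trees a library was made from. The table of the authors gives folds as healthy over spongy, and all ratios below were turned to spongy over healthy.

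Spongy tissue is a physiological disorder of Alphonso mango in which patches of flesh become soft, pale and corky with air pockets while the skin looks sound, so that affected fruit is found only when it is cut. Mango is a climacteric fruit. Its flesh turns starch into sugars, loosens its cell walls and gathers carotenoids under the control of ethylene once it has been picked. In a bulk sample of flesh, fewer cells of a type and less RNA per cell cannot be told apart.

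The transcripts came from an assembly of short reads and carry numbers, not gene names. An ID of the form Locus, Transcript, Confidence and Length gives the assembled locus, the place of the sequence among all transcripts of that locus, a confidence value and the length in nucleotides (nt). A locus in such an assembly gathers sequences that share stretches, which can be splice forms, alleles, close gene copies or fragments. A locus with 1 transcript has no such relatives in the assembly. Of the IDs, 0 were found among the 38372 genes of the mango genome CATAS_Mindica_2.1 (RefSeq), so the results are given by properties of the transcripts, and no pathway or protein sequence is shown.

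Levels, which are read counts divided by the size factor of the library, were recovered per library from the deposited tables. The recovered reads came to 62356294 in the spongy and 52778921 in the healthy library of 5 DAH, and the 22200 transcripts held 99.6% and 99.3% of them. Their median was 361 reads in spongy and 491 reads in healthy flesh, with size factors of 1.27 and 1.84. In the spongy library 3 of the 22200 transcripts had 0 reads, and in the healthy library 4. The standard error that counting alone gives the log2 ratio had a median of 0.10, and reads were not counted as molecules. Locus 2, with 171 of the 22200 transcripts among its listed ones, took 51.3% of the reads in spongy and 21.6% in healthy flesh. The scaling of the libraries therefore decides where a ratio of 1 lies, and the shift it makes is given with the counts.

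Most transcripts differed little. The median log2 ratio of spongy to healthy flesh was 0.00, and the middle of the distribution, between its quartiles, ran from -0.39 to 0.46. The distribution was longer on the side of spongy flesh, with its 5th percentile at -1.29 and its 95th at 2.43. The size of the difference, taken without its sign, had a median of 0.42.

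At least 2-fold higher in spongy flesh were 2922 of the 22200 transcripts, 13.2%, where 15.2% of all 30577 transcripts with a level were. At least 2-fold lower in spongy flesh were 1825, 8.22%, against 9.94% of all. At 4-fold the counts were 1422 higher, 6.41% against 6.98% of all, and 288 lower, 1.30% against 1.85% of all. Both directions were thus slightly rarer than in the whole table, which also holds the low transcripts. The exact 95% interval of the fold, from the split of the reads, lay wholly beyond 2-fold for 2331 transcripts on the higher and 1292 on the lower side. Higher transcripts made up 61.6% of those 2-fold apart under the authors' scaling. With equal library totals they made up 17.6%, and the median moved to -0.77. That scaling shifts every transcript by nearly the same amount, so the gaps between class medians given next move little with it, while the shares higher and lower change.

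Just inside the level limit, the 572 transcripts with a mean of 50 to 55 were 2-fold higher in 16.4% and lower in 7.34% of cases. Just outside it, at 45 to 50, 609 transcripts gave 16.7% and 7.22%. The values thus ran smoothly across the limit.

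By expression level, taken as the mean over the 4 libraries, the size of the difference was smallest in the middle and largest at the top. Its median was 0.49 for the 4055 transcripts with a mean of 50 to 100, and 0.37 for the 3598 with a mean of 500 to 1000. It was 0.44 for the 3233 of 1000 to 5000 and 0.57 for the 726 of 5000 and more. The standard error from counting had medians of 0.21 and 0.02 in the lowest and the highest of these classes, so the largest differences stood beside the smallest counting error. This mean holds the compared libraries, so a transcript high in 1 of them moves up a class. By the geometric mean of both libraries of 5 DAH the median size was 0.45 at 5000 and more, below 0.49 at 50 to 100.

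The sign went with level as well. In the lowest class 632 (15.6%) had a level at least 2-fold higher in spongy flesh, and 289 (7.13%) a lower one. With a level of at least 50 required in both libraries of 5 DAH, 2404 transcripts of this class were left, of which 2.75% were higher and 2.91% lower. In a class with a mean under 100 this limit leaves little room for a 2-fold difference. The share 2-fold apart fell from 22.7% to 5.66%. The excess of higher ones was not seen there, but these values cannot decide on it. Lower ones were the more frequent in the class of 1000 to 5000, with 356 (11.01%) higher and 420 (13.0%) lower, and the median log2 ratio there was -0.13. In the highest class 228 (31.4%) were higher and 60 (8.26%) lower. With equal library totals lower transcripts prevailed in all 6 level classes, with 18.2% higher and 23.7% lower in the highest.

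**Figure D1:**
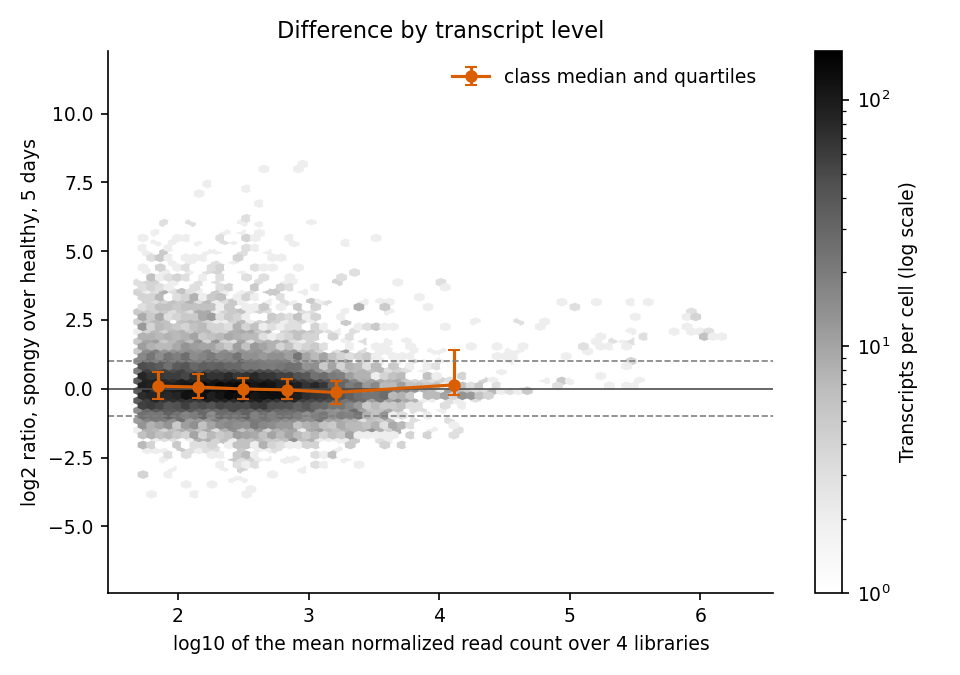
The log2 ratio of spongy to healthy flesh at 5 DAH (vertical axis) against the log10 of the mean normalized read count over 4 libraries (horizontal axis) for 22200 transcripts, shaded by the number of transcripts per cell on a log scale. Orange points are class medians with quartiles, and dashed lines mark 2-fold; the highest class has its upper quartile at 1.40, above the 2-fold line.

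Loci 2 and 3 made up much of the highest class. Of its 726 transcripts 387 belonged to loci 2 and 3. Without them 25.7% of the class were higher and 17.7% lower in spongy flesh, its median was -0.03 in place of 0.14, and the median size was 0.75. The 171 transcripts of locus 2 had a median log2 ratio of 1.86, and the 594 of locus 3 one of 0.02. In the other level classes the shares moved less, most at 1000 to 5000, where 13.7% were lower without these loci.

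**Figure D2:**
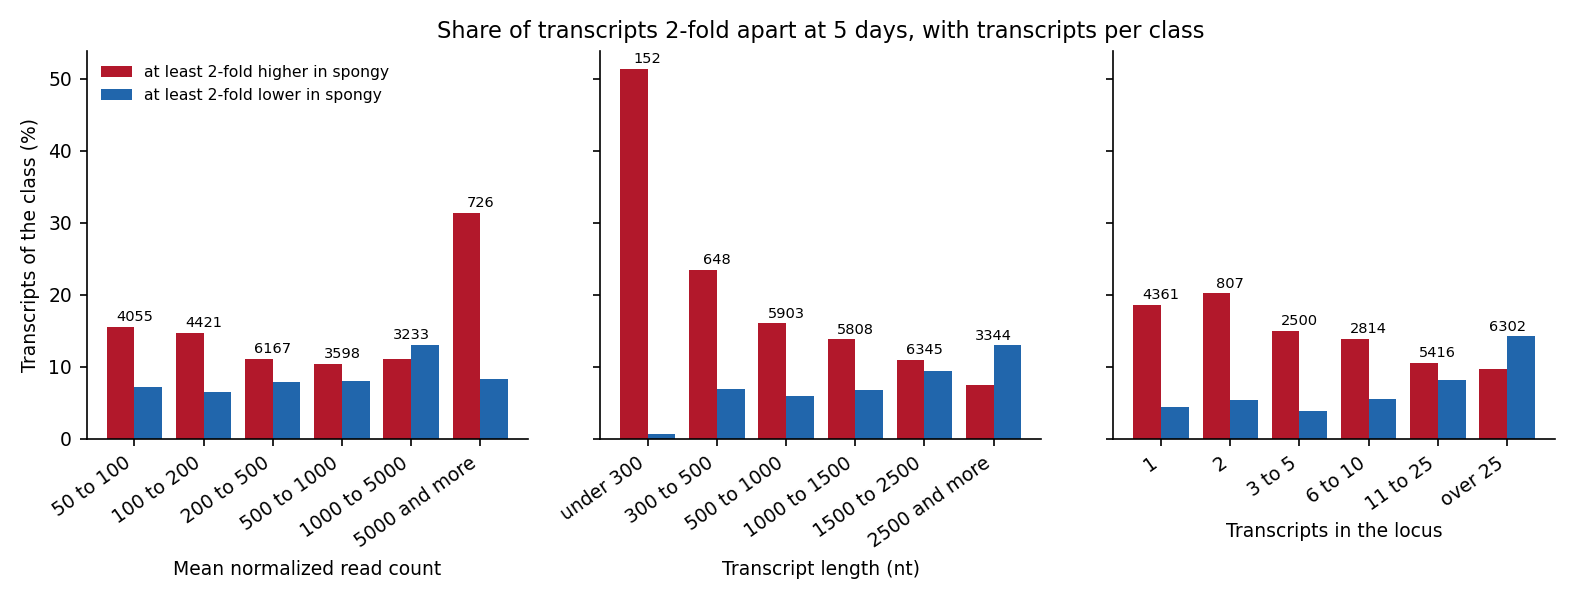
Percent of transcripts (vertical axis, from 0) at least 2-fold higher (red) and at least 2-fold lower (blue) in spongy flesh at 5 DAH, by mean normalized read count, transcript length in nt and number of transcripts in the locus, with the number of transcripts above each class. The red bars fall with length to 7.42%, and the blue bars reach 14.2% in loci of over 25 transcripts.

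Length went with the direction of the difference more than with its size. Of the 152 transcripts under 300 nt, 78 (51.3%) were at least 2-fold higher and 1 was at least 2-fold lower in spongy flesh. The share of higher transcripts was 23.5% at 300 to 500 nt, 16.0% at 500 to 1000 nt, 13.8% at 1000 to 1500 nt and 10.99% at 1500 to 2500 nt. Among the 3344 transcripts of 2500 nt and more it was 7.42%, with 248 higher and 434 (13.0%) lower. Long transcripts were thus the more often lower in spongy flesh, and short ones the more often higher. With equal library totals higher transcripts prevailed only under 300 nt, where 33.6% were higher and 15.1% lower, and at 2500 nt and more 4.25% were higher and 48.9% lower.

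The median log2 ratio followed the same order. It was 1.02 under 300 nt, 0.21 at 300 to 500 nt, 0.16 at 500 to 1000 nt, 0.06 at 1000 to 1500 nt, -0.08 at 1500 to 2500 nt and -0.21 at 2500 nt and more. The shortest and the longest class stood 1.24 apart, and they stood 1.24 apart with equal library totals, where the longest class had a median of -0.99 and the shortest 0.25. The size of the difference, by contrast, was nearly level beyond 1000 nt, with medians of 0.41, 0.39 and 0.39. Across the 22200 transcripts the Spearman correlation of length was -0.21 with the log2 ratio and -0.06 with its size. Transcripts of 1 locus share sequence and library, so these correlations are descriptions without a p-value.

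Few short transcripts reached the level limit, and this bears on the shortest classes. Of 2343 transcripts under 300 nt with a level, 152 (6.49%) had a mean of at least 50, against 68.9% at 500 to 1000 nt and all 3344 of 2500 nt and more. Among the 2191 short ones below the limit, 21.9% were higher and 18.9% lower in spongy flesh, with a median of -0.04. A short transcript can pass through a high level in spongy flesh alone, and 42 of the 152 had a level under 50 in healthy flesh. With a level of at least 50 required in both libraries, 47.2% of 106 transcripts under 300 nt were higher and 0 lower. The shares higher were then 14.2%, 8.67%, 9.49%, 8.47% and 6.71% in the longer classes in order, nearly flat from 500 to 2500 nt. The shares lower were 3.67%, 4.58%, 6.08%, 9.40% and 12.8%. With either limit the share lower was smallest under 300 nt and largest at 2500 nt and more. The stricter limit leaves less room for a 2-fold difference at low level. Median levels with it were 128 at 300 to 500 nt and 906 at 2500 nt and more. How far it shapes the rise of lower and the flatter course of higher transcripts was not tested. With no limit the shares lower were 17.8% under 300 nt, 7.26% at 500 to 1000 nt and 13.0% at 2500 nt and more. The order of the shortest and the longest class was thus seen only with a limit.

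Length and level go together, with a Spearman correlation of 0.56, so length was also read within level. At a mean of 200 to 500 the median log2 ratio was 0.44 at 300 to 500 nt and -0.19 at 2500 nt and more. At 500 to 1000 it was 0.69 and -0.22 for the same lengths. At 1000 to 5000 it was 1.61 under 300 nt, over 23 transcripts, and -0.32 at 2500 nt and more, over 1139. At 50 to 100 it was 0.13, 0.05, 0.15 and 0.03 for the lengths up to 1500 nt, so the order was not seen among short transcripts of low level. The mean that sets these classes holds the compared libraries, so a transcript high in spongy flesh moves up a class here too. Length within classes of the geometric mean is not given. Medians were averaged over level classes with the weights of all 22200 transcripts, over cells of at least 20. They were 0.78 under 300 nt and -0.18 at 2500 nt and more. The shares of higher transcripts, averaged likewise, were 45.8% and 11.2%, and those of lower transcripts 0.65% and 13.1%. These averages cover 4 level classes for the shortest and 5 for the longest transcripts, not all the same ones. Over all cells, the smallest of 6 and 3 transcripts, the medians were 0.96 and -0.48, and the shares lower 0.37% and 22.9%.

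**Figure D3:**
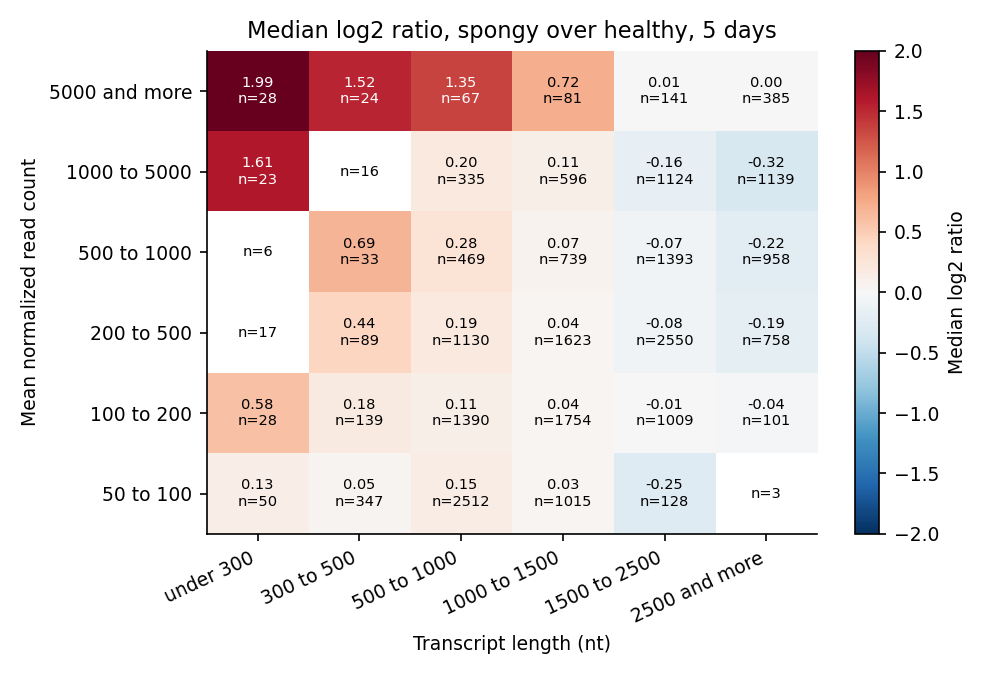
Median log2 ratio of spongy to healthy flesh at 5 DAH (colour) by transcript length in nt (horizontal axis) and mean normalized read count over 4 libraries (vertical axis), with the number of transcripts in each cell; cells under 20 transcripts are left white. From a mean of 200 upward the median falls with length, and at 50 to 100 it does so little up to 1500 nt.

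Read the other way, class medians by level differed little with length held fixed, except at the top. The median averaged over length classes, over cells of at least 20, lay between -0.03 and 0.06 in the 5 classes under 5000 and was 0.61 at 5000 and more. Over all cells it was -0.30 at 50 to 100, where the smallest cell held 3 transcripts. Outside loci 2 and 3 the value at 5000 and more was 0.11 over 339 transcripts, so much of the gap went with these loci. In that top class 92.9% of 28 transcripts under 300 nt were higher in spongy flesh, and 20.3% of 385 of 2500 nt and more. Median reads of the 28 were 15885.5 in spongy and 3778 in healthy flesh. With a size factor of 1.84 for healthy flesh, 3778 reads are a level under 5000. A high level in spongy flesh can thus place a transcript in this class, so the 92.9% is bound up with the class limit.

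The number of transcripts in the locus, read from the ID, went with direction in the same manner. Of the 4361 transcripts from loci of 1 transcript, 810 (18.6%) were at least 2-fold higher in spongy flesh and 194 (4.45%) lower. Of the 6302 from loci of over 25 transcripts, 611 (9.70%) were higher and 895 (14.2%) lower. In between, the share of higher transcripts was 20.2% in loci of 2 transcripts, 15.0% for 3 to 5, 13.9% for 6 to 10 and 10.6% for 11 to 25. The share of lower ones was 5.33%, 3.88%, 5.58% and 8.11% in the same order. The median log2 ratio was 0.16 in loci of 1 transcript and -0.19 in loci of over 25. When library totals were made equal these medians were -0.61 and -0.96, and lower transcripts prevailed in all 6 classes, with 11.7% higher and 24.95% lower in loci of 1 transcript and 4.73% and 47.3% in loci of over 25. The size of the difference varied less, with class medians from 0.39 to 0.47. With a level of at least 50 in both libraries the shares higher were 10.4% in loci of 1 transcript and 8.23% in loci of over 25, and the shares lower 3.71% and 13.7%. With either limit the share lower was thus largest in loci of over 25, and the gap in higher ones was small with the stricter one. The stricter limit leaves less room for a 2-fold difference at low level, and its part in this was not tested. Over all transcripts with a level the shares lower were 10.7% in loci of 1 transcript and 14.2% in loci of over 25. Among those with a mean under 50 the order was the other way, with 18.1% and 14.0% lower.

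Loci 2 and 3 lie in the class of over 25 transcripts. Without them 7.71% of the class were higher and 16.1% lower in spongy flesh. With level held fixed the shares higher were 19.2% in loci of 1 transcript and 8.65% in those of over 25, and the shares lower 4.40% and 14.4%. With length held fixed they were 16.8% and 10.1% for higher, and 4.48% and 13.6% for lower. Number of transcripts and length thus each kept an order with the other held fixed, since the share lower was 6.73% at 500 to 1000 nt and 10.9% at 2500 nt and more with the number of transcripts held fixed.

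The place of the locus in the numbering of the assembly was not itself used to choose transcripts, and the direction of the difference went with it too. It goes with level, however, with a Spearman correlation of -0.49, and level was used in the choice. In loci under 5500, 1290 of 15975 transcripts (8.08%) reached 2-fold higher levels in spongy flesh and 1568 (9.82%) 2-fold lower ones. In loci from 5500 on, 1632 of 6225 (26.2%) were higher and 257 (4.13%) lower. The median log2 ratio was -0.09 in the first part and 0.31 in the second. With equal library totals the medians were -0.86 and -0.46, the shares higher 3.57% and 17.2%, and the shares lower 40.1% and 20.6%. The step lay at the class of loci 5500 to 5999, with a median of 0.70 and 42.5% higher, next to a median of 0.04 and 7.80% higher in loci 5000 to 5499. The second part was not uniform. Its medians were lower in later classes, 0.32 at loci 7500 to 7999 and 0.09 at 10000 to 10499, and loci 11000 to 12499 ran the other way. Medians there were -0.25, -0.34 and -0.19 in 3 classes of 500 loci, with 9.90%, 6.43% and 3.95% of 192, 140 and 76 transcripts higher and 22.4%, 15.0% and 17.1% lower. Loci 13500 to 13999 had a median of 3.15 over 45 transcripts. Their means had a median of 78.6, and their median reads were 260 in spongy and 50 in healthy flesh. With a size factor of 1.84 for healthy flesh, 50 reads are a level under the limit of 50. Such transcripts can pass the limit through the libraries where they are high, so this median is bound up with the choice. In the second part 614 transcripts had a geometric mean of both libraries of 5 DAH under 50, and 406 (66.1%) of them were higher. In the first part these were 352, with 81 (23.0%) higher. At a geometric mean of 200 to 500 the shares higher were 6.54% in the first part and 18.2% in the second. The limit of 5500 was set with these ratios known, so the gap between the parts is a description.

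**Figure D4:**
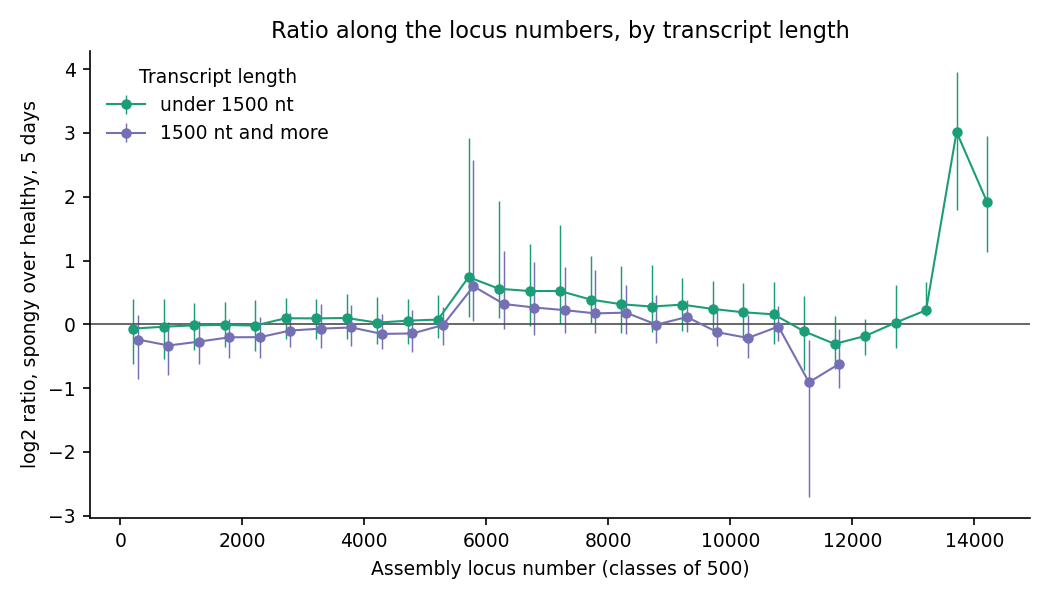
Median log2 ratio of spongy to healthy flesh at 5 DAH with quartiles (vertical axis) in classes of 500 assembly locus numbers (horizontal axis), for transcripts under 1500 nt (green) and of 1500 nt and more (purple); classes under 20 transcripts are not drawn. Both lengths step up at loci 5500 to 5999, to medians of 0.74 and 0.59, and transcripts of 1500 nt and more lie below shorter ones in every class drawn for both.

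With the parts taken apart, level and number of transcripts behaved differently in each. In loci under 5500 the median log2 ratio moved little with level below 5000, with -0.08 at 50 to 100 and -0.16 at 1000 to 5000. At 5000 and more it was 0.09, with 27.8% higher and 8.60% lower. Outside loci 2 and 3 that class had a median of -0.11, with 16.7% higher and 19.7% lower. In loci from 5500 on it was 0.26 at 50 to 100, 0.70 at 500 to 1000 and 3.15 over the 152 transcripts at 1000 to 5000, of which 116 (76.3%) were higher in spongy flesh. The mean that sets the class holds the spongy libraries, so a transcript high in them moves up a class. By the geometric mean of both libraries of 5 DAH the same part had medians of 0.28, 0.33 and 0.98 in these classes, over 1972, 283 and 82 transcripts.

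In the first part the number of transcripts went with the share of lower transcripts and not with that of higher ones. In loci under 5500 the share lower in spongy flesh was 5.06% in loci of 1 transcript, 3.90% for 3 to 5, 9.28% for 11 to 25 and 14.8% for over 25, while the share higher was between 6.35% and 9.77% in all 6 classes. In loci from 5500 on the share higher was between 25.4% and 29.9% in the 5 classes up to 25 transcripts and 17.8% over 25, and the share lower was between 2.61% and 6.22% in all 6. Loci of 1 transcript made up 2801 of the 6225 transcripts in the second part and 1560 of the 15975 in the first. The difference between the parts was not tested.

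**Figure D5:**
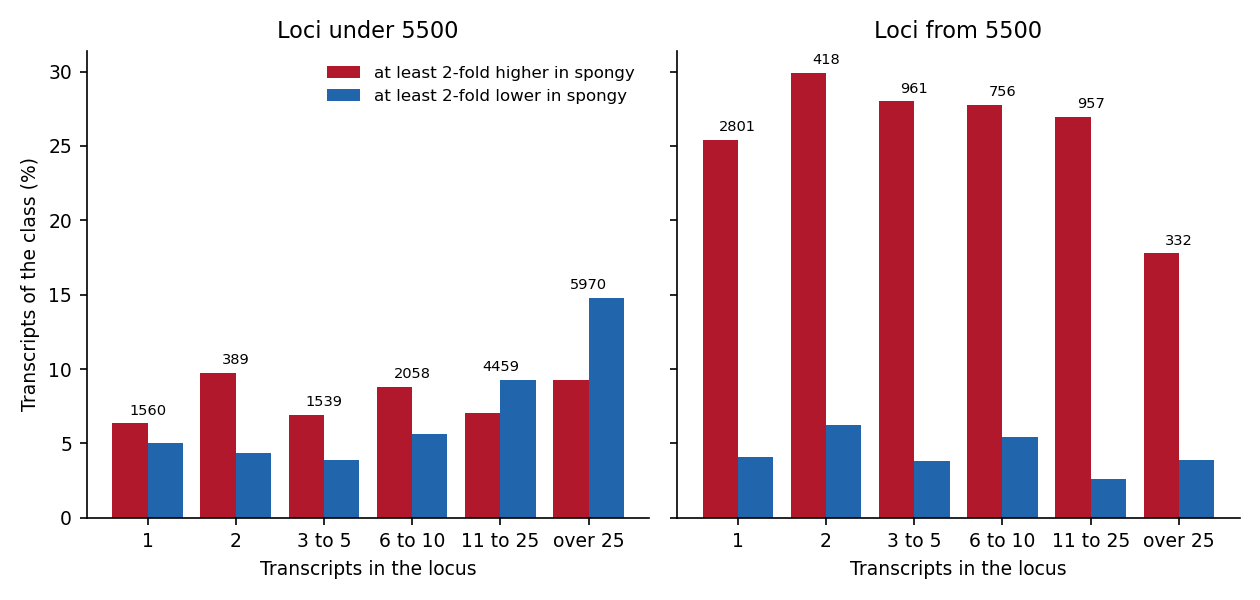
Percent of transcripts (vertical axis, from 0) at least 2-fold higher (red) and lower (blue) in spongy flesh at 5 DAH by the number of transcripts in the locus (horizontal axis), for loci under 5500 (left) and from 5500 on (right), with the number of transcripts above each class. Blue bars reach 14.8% at over 25 transcripts on the left, and red bars are tallest in every class on the right.

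Length kept its order within both parts. In loci under 5500 the median was 0.29 over 59 transcripts under 300 nt and -0.24 over 2962 of 2500 nt and more. In loci from 5500 on it was 1.61 over 93 and 0.07 over 382. The last numbers of the assembly, loci 14000 to 14499, held 76 transcripts with a median length of 258 nt and a median log2 ratio of 1.92. Their median reads were 865.5 in spongy and 315.5 in healthy flesh, and 59 were higher and 1 lower.

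Transcripts of a locus mostly had similar ratios. Of 10186 loci, 4056 held 2 or more of the transcripts compared, and 82.2% of the variance of the log2 ratio over their 16070 transcripts lay between loci. The median range within such a locus was 0.41. Grouping alone also puts part of the variance between these loci, and that part was not worked out. At least 1 transcript was 2-fold higher in spongy flesh in 718 of these loci and at least 1 was 2-fold lower in 442. Both occurred in 47, which is 6.55% of the first and 10.6% of the second. For comparison, a lower transcript occurred in 442 and a higher one in 718 of all 4056 loci. The overlap was not tested and is not a measure of likeness within loci. All transcripts were higher in 270 loci and all lower in 104. Counts of transcripts therefore count some loci many times, and summed by locus 1534 loci were higher and 469 lower of 10277 with a mean of at least 50.

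The confidence value of the ID set a small class apart, most clearly under 300 nt. Of the 163 transcripts with a confidence of 1, 80 (49.1%) were at least 2-fold higher in spongy flesh and 7 lower, with a median log2 ratio of 0.92. The 4907 with a confidence of 0 had a median of 0.13, and the classes between them -0.08 to 0.13. Short transcripts were common in the set, with 63 of the 163 under 300 nt, of which 77.8% were higher, against 45.8% of 24 at 300 to 500 nt and 26.1% of 23 at 1000 to 1500 nt. In the other confidence classes 27.8% to 42.9% were higher under 300 nt, the smallest classes of 7 transcripts. At 300 to 500 nt these shares were 18.2% to 44.8%, and at 1000 to 1500 nt 10.0% to 23.2%. Their upper ends thus lay near the values at a confidence of 1.

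Single transcripts were named only where they were long and well counted, with at least 1000 nt, a mean of at least 1000 and 100 reads in each library of 5 DAH, outside loci 2 and 3. These were 2942, and spongy flesh had 271 (9.21%) of them at least 2-fold higher and 455 (15.5%) lower. Lower ones thus prevailed in this set, whereas 13.2% of the 22200 were higher and 8.22% lower. Locus_5571_Transcript_24_25_Confidence_0.600_Length_2334 had the highest ratio. Its reads at 5 DAH were 14398 in spongy and 135 in healthy flesh, and 8833 and 12 at 10 DAH in the same order. Its normalized levels at 10 DAH were 7961 and 30.8. Its normalized level at 5 DAH was 155-fold higher in spongy flesh (95% interval 131 to 185). All 6 listed transcripts of its locus were higher, by log2 ratios of 5.63 to 7.62.

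Locus_6086_Transcript_1_1_Confidence_0.000_Length_1786 stands alone in its locus. With 5407 reads in spongy and 128 in healthy flesh at 5 DAH, it was 61.2-fold higher (51.4 to 73.6). At 10 DAH its reads were 2449 and 46, and its normalized levels 2207 and 118. Both transcripts were picked by their ratio at 5 DAH, so the gap on that day follows from the choice. At 10 DAH the level was again higher in spongy flesh for both. How many other transcripts ran the same way on both days was not counted. The days differ in ripeness and are not replicates of each other.

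Of the lowest ratios, Locus_336_Transcript_2_4_Confidence_0.667_Length_1359 had 2016 reads in spongy and 28948 in healthy flesh at 5 DAH, a level 9.90-fold lower in spongy flesh (9.47 to 10.4). At 10 DAH it had normalized levels of 2961 in spongy and 9509.5 in healthy flesh. The other listed transcript of this locus was also lower, by -3.19 on the log2 scale. Locus_2488_Transcript_2_2_Confidence_0.000_Length_1484 had 240 reads in spongy and 3328 in healthy flesh at 5 DAH and was 9.56-fold lower (8.39 to 10.9). Its levels at 10 DAH were 471 in spongy and 1835 in healthy flesh. The largest well-counted differences were thus much smaller on the lower side than on the higher side. The intervals cover counting error only.

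The same transcripts were also compared at 10 DAH. At least 2-fold higher in spongy flesh were 16.1% of the 22200 transcripts, against 18.5% of all, and 9.92% were lower, against 12.4% of all. By length the share higher was 26.3% under 300 nt, 21.3% at 500 to 1000 nt and 6.52% at 2500 nt and more. By number of transcripts it was 22.4% in loci of 1 and 7.73% in loci of over 25, where 19.5% were lower. In loci from 5500 on 32.5% were higher, and in loci under 5500 9.70%. Under 300 nt, however, 37.5% were lower at 10 DAH, where 1 of 152 was at 5 DAH. These shares hold for the authors' scaling. With equal library totals the median of the 22200 transcripts at 10 DAH moved to 1.92, and 88.2% were higher and 0.59% lower, against 84.4% and 0.92% of all. Under 300 nt 62.5% were then higher and 10.53% lower, and at 2500 nt and more 83.9% were higher and 0.81% lower, so the order of the shares higher between these classes turned round. In loci of 1 transcript 92.5% were higher and in loci of over 25 77.4%. Differences between the days were not tested.

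The authors' deposited table from DESeq2 gave an adjusted p under 0.05 to 0 of the 22200 transcripts and to 0% of all 30577. An unadjusted p under 0.05 was given to 391 of the 22200, 1.76% against 1.74% of all, and the smallest adjusted p was 0.980. In that table the standard error had a median of 0.77 at a mean of 50 to 100, 0.60 at 500 to 1000 and 0.87 at 5000 and more. For the transcript of locus 5571 it was 3.11. With 1 library per group that test had no replicates, so the absence of calls does not show likeness.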

How the data were processed

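Mesocarp RNA of 4 samples was purified with a kit and sequenced as Illumina libraries, according to the labels. CASAVA 1.8.2, Bowtie2 2.2.3 and DESeq2 appear in the submitters' processing notes, and how the transcripts were assembled and counted is not stated there. The authors deposited 4 tables of comparisons. Their mean normalized count is a signal that the authors made by dividing reads by size factors and averaging the 4 libraries. Per the file headers the tables also hold a log2 fold change and its standard error, a test score (fold change over standard error), a p-value and an adjusted p-value.

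Levels per library were worked out from the deposited mean and 3 log2 fold changes, as 3 ratios and 1 mean fix 4 values. They were whole reads times 1 step per library. Of 103985 values under 1000 reads 99.98% lay within 0.05 of a whole number, and 10.3% did when the folds were read in the opposite direction. Of 17587 larger values 94.8% did. Values under 0.35 read were set to 0. No level exists for 5 transcripts. Log2 ratios are of levels with 1 added, so that differences of low transcripts are understated, and they were counted at 2-fold without a test. Exact (Clopper-Pearson) 95% intervals of folds come from the split of reads. Steps were tested on simulated data. Classes include their lower limit.

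The transcripts, classes and the split at locus 5500 were chosen with earlier results of these data known. Transcripts were named by a rule, the 2 highest and the 2 lowest log2 ratios among those described in the text, at most 1 per locus. TMM factors trimmed 30% of ratios and 5% of levels. Other settings stand in the closing section. The scripts ran under Python 3.11.15 with matplotlib 3.10.9, scipy 1.17.1, pandas 2.3.3 and numpy 2.4.6.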

Additional observations from a re-analysis of the deposited data

Results flagged for a closer look

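Of the classes by level, length and number of transcripts, those with medians of opposite sign at 5 and 10 DAH, both at least 0.1 in size, are given here. The 726 transcripts with a mean of 5000 and more had a median log2 ratio of spongy to healthy flesh of 0.14 at 5 DAH and -0.31 at 10 DAH. The 152 transcripts under 300 nt had medians of 1.02 at 5 DAH and -0.19 at 10 DAH. Both pairs are under the authors' scaling. With equal library totals the medians were -0.63 at 5 DAH and 1.61 at 10 DAH for the first class, so both signs turned, and 0.25 and 1.70 for the second, which then had the same sign on both days. Of the other sets described above, the 163 transcripts with a confidence of 1 had medians of 0.92 and -0.21 under the authors' scaling. Loci 14000 to 14499 had 1.92 and -1.70. The difference between the days was not tested, since each day holds 1 library per group. Loci 2 and 3 hold 387 of the first class and 19 of the second, and locus 2 alone holds 130 and 8. The 171 transcripts of locus 2 had median log2 ratios of 1.86 at 5 DAH and -2.15 at 10 DAH under the authors' scaling. At 10 DAH locus 2 took 51.0% of the reads in spongy and 72.3% in healthy flesh. The part of these loci in the class values was not tested.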

How the results depend on the processing

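Every comparison rests on 1 library per group, so no result has a replicate check. No paired analysis was possible because each group holds 1 library. The values under other settings are compared with 2922 transcripts higher and 1825 lower in spongy flesh, and with shares 2-fold apart of 22.7% (mean of 50 to 100), 39.7% (5000 and more), 52.0% (under 300 nt), 20.4% (2500 nt and more), 23.0% (loci of 1 transcript) and 23.9% (over 25). The cause of a shift was not tested unless the setting itself fixes it. With TMM factors, 0.5 added, or the mean of the 2 libraries of 5 DAH, both counts stayed within 1.5 times and all these shares within their binomial interval. With the same total per library 1644 were higher and 7697 lower, and shares were 41.1% (50 to 100), 53.1% (2500 nt and more), 36.7% (loci of 1) and 52.0% (over 25). That scaling gave the named transcripts of loci 5571, 6086, 336 and 2488 log2 ratios of 6.49, 5.15, -4.08 and -4.03. With equal totals outside these loci (2 and 3) the share over 25 was 25.5%. Without these loci it was 43.4% at a mean of 5000 and more. Summed by locus, 1534 were higher and 469 lower, with 29.5% (50 to 100), 30.5% (5000 and more), 63.4% (under 300 nt), 12.1% (2500 nt and more) and 13.1% (over 25). With no level minimum 4647 were higher and 3038 lower, with 31.0% (all under 100), 41.6% (under 300 nt) and 31.8% (loci of 1). With a minimum of 200, 1642 were higher, with 73.0% (under 300 nt), 20.2% (loci of 1) and 27.2% (over 25), and the class of 50 to 100 was empty. With 10 added the shares were 18.3% (50 to 100), 21.0% (loci of 1) and 22.2% (over 25). At 4-fold 1422 were higher and 288 lower, and the 6 shares in the order above were 8.83%, 14.7%, 26.3%, 5.05%, 11.4% and 5.87%. The authors' adjusted p called 0 higher and 0 lower.

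Other settings were chosen after the data were seen. With a level of at least 50 in both libraries of 5 DAH 1748 were higher, with 5.66% (50 to 100), 14.1% (loci of 1) and 22.0% (over 25). In loci under 5500 alone 1290 were higher, so that lower transcripts were the more frequent, with 16.8% (50 to 100), 28.8% (under 300 nt) and 11.4% (loci of 1). By the geometric mean of the libraries of 5 DAH the shares were 35.3% (5000 and more) and 19.7% (loci of 1). With the interval of the fold wholly beyond 2-fold they were 13.5% (50 to 100), 17.3% (2500 nt and more), 18.3% (loci of 1) and 18.0% (over 25). The difference between the medians of the shortest and the longest class was 1.24 as reported, 0.53 in loci under 5500 and 0.22 with no level minimum. Depth limits the low classes most, where counting error of the log2 ratio had a median of 0.21.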
